A study of Mus musculus with 10 samples.

Results

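The genes of cholesterol and fatty acid synthesis, with the proteins that control them through sterol regulatory element binding proteins (SREBPs), were followed in microglia taken from adult brain and from 2 kinds of culture. The list of 30 genes was matched by name to the gene symbols of the count tables, where it made up 30 of 18292 symbols. All 30 had at least 1 count in the series, and 28 passed the filter on low counts, so that Scd1 and Fads2 could not be tested. The members were grouped as 7 enzymes of the mevalonate arm, 11 enzymes of the sterol arm, 6 enzymes of fatty acid synthesis and desaturation, 5 genes of SREBP control and 1 gene of sterol transport.

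All cells came from C57BL/6 mice and were sorted as CD11b high, CD45 intermediate cells, with 2 libraries in each of 5 groups. Adult microglia were taken fresh from the brain of adult animals. The *in vitro* microglia grew for 3 weeks in mixed glial cultures from the cortex of newborn pups, in medium with horse and fetal bovine serum. The slice microglia came from coronal slices of newborn brain that were kept on a membrane, in medium with horse serum, for 1 day, 1 week or 3 weeks, and slices were pooled where needed to obtain enough cells. Since every cultured group began from newborn tissue and the control was adult, age and culture cannot be told apart in the comparisons with adult. Adult replicate 1 and slice 3 weeks replicate 1 carry another study label than the other 8 libraries.

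Cholesterol is built from acetyl-CoA through mevalonate, squalene and lanosterol. Fatty acids are built by acetyl-CoA carboxylase and fatty acid synthase and then desaturated. When the sterol content of the endoplasmic reticulum falls, SCAP carries SREBP to the Golgi, where it is cut so that its free part can enter the nucleus and raise transcription of these enzymes, and INSIG proteins hold the SCAP and SREBP complex back when sterol is plentiful. Microglia make sterols and also take up and export lipids from myelin and dying cells.

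SREBPs act at promoters together with the CCAAT-binding factor NF-Y, and the upstream sequence of 4 members whose transcripts were called higher in cultured microglia is given as an example of how these promoters read. The sequences are RefSeq, build GRCm38.p6, and cover the 250 bases before an annotated start in the direction of transcription, with each CCAAT on either strand and each TCACNCCAC, a form of the sterol regulatory element, in capitals. Hmgcs1 lies at chr13:119690101-119690350 on the plus strand, Mvd at chr8:122443423-122443672 on the minus strand, Sc5d at chr9:42264301-42264550 on the minus strand and Fasn at chr11:120824548-120824797 on the minus strand.
Hmgcs1: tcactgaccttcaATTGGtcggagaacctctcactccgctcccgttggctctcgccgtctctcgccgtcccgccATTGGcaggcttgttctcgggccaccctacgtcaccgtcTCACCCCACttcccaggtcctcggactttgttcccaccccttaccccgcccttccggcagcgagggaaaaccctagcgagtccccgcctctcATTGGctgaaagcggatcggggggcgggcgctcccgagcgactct
Mvd: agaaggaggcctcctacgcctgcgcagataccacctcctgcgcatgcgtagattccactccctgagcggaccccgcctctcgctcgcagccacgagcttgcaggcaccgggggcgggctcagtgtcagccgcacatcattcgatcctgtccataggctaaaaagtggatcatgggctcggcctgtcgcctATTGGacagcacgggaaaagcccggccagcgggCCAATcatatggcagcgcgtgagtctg
Sc5d: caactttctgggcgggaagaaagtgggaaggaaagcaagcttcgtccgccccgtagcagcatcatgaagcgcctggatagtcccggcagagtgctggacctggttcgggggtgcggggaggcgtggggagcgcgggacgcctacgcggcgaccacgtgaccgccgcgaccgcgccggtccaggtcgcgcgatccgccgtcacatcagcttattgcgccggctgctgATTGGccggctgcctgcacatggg
Fasn: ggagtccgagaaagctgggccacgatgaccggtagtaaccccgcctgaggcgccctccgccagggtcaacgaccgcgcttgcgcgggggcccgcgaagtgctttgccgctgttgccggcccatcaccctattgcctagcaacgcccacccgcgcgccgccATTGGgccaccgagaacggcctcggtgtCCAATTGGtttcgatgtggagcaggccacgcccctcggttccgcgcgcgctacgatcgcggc
The Hmgcs1 window held 3 matches to CCAAT, starting at -237, -176 and -45 from the annotated start, and 1 match to TCACNCCAC. Mvd held 2 matches to CCAAT, at -60 and -27, Sc5d held 1, at -24, and Fasn held 3, of which 2 overlapped. Promoters were listed for 23 of the 30 members, and 19 of these had CCAAT in at least 1 window. Counted by window, CCAAT was found in 20 of 31 member windows (64.5%) and in 33.8% of all 32851 windows of this length, and TCACNCCAC in 1 member window, that of Hmgcs1, and in 1.05% of all windows. A match describes the letters and is not a measured binding site.

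The 10 libraries held 61 to 3799 cells after filtering and 385373 to 39689540 UMIs (unique molecular identifiers, which count captured transcripts), with the fewest in both slice 1 week libraries (148 and 61 cells). The paper counted fewer microglia at 1 week than the cells kept here. All 148 cells of slice 1 week replicate 1 had UMIs of at least 2 neutrophil markers, as did all 1014 of slice 1 day replicate 2. Values from these libraries may therefore not be of microglia alone. Levels are given as CPM, the UMI count of a gene scaled to a common library total with TMM factors. The 12 microglia markers were all detected in every library, at a sum of 53751 to 53896 CPM (for markers, without TMM factors) in adult and 4741 to 24233 in the cultured groups, but Sall1 and Siglech were near 0 *in vitro* (0.294 and 0.0756 for Sall1). Pf4 and Mrc1, markers of border macrophages, were high *in vitro* (Pf4 1788 and 1873, adult at most 4.76). Neutrophil markers summed to 7660 and 22423 at 1 day and 40259 and 955 at 1 week, and were at most 8.39 in the other libraries. Erythroid markers summed to 3460 in slice 1 day replicate 1 and 1846 in adult replicate 1, and to at most 1.02 elsewhere, and monocyte markers to 150 to 1144 in slices, 37.5 and 88.9 *in vitro* and 7.35 and 5.44 in adult. UMIs of at least 2 markers of 1 other cell type were found in 16 to 2386 cells of each library, among them all cells of slice 1 day replicate 2 and slice 1 week replicate 1. A stricter limit, chosen after seeing the data, marked cells with over 1% of UMIs from S100a8 and S100a9 or from erythroid genes, or with UMIs of at least 2 genes of a short list of oligodendrocyte markers. It marked 70 and 115 cells at 1 day, 25 and 2 at 1 week, then 6 and 15 at 3 weeks, and 0 to 2 in each other library. The limit used no border macrophage gene, though 2095 of 2417 and 2350 of 2682 *in vitro* cells had UMIs of at least 2 such markers. Member changes without these strictly marked cells are given beside the results, and cells with fewer UMIs of such genes remained in them. No pair of libraries shared more than 23 cell barcodes.

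The 28 members tested were set against adult in each cultured group, and a call needed an adjusted p under 0.05 and a change of more than 1.5-fold in edgeR. *In vitro*, 10 members were higher (22.4% of all genes tested were) and 4 lower (28.5%). In slices, 9 were higher (24.9%) and 4 lower (25.3%) at 1 day, 3 higher (15.0%) and 3 lower (13.6%) at 1 week, and 12 higher (17.9%) and 2 lower (17.5%) at 3 weeks. The share of members called higher was above the share of all genes *in vitro* and at 3 weeks. At 3 weeks it stayed above in all 23 alternatives, with the smallest gap without adult replicate 1 (8 members, 27.6% against 14.1%). *In vitro* it was above in all 23 too, but close to the share of all genes without adult replicate 2 (6 members, 20.7% against 18.8%), without adult replicate 1 (7 members, 24.1% against 21.1%) and with thinned cells (7 of 28 members, against 22.3%). At 1 day it was above, but fell below the share of all genes in 7 of 23 alternatives, among them those without slice 1 day replicate 2 (4 members, 13.8% against 19.7%), adult replicate 1 (5 members, 17.2% against 21.4%), slice 1 day replicate 1 (6 members, 20.7% against 22.8%) and adult replicate 2 (6 members, 20.7% against 21.0%). At 1 week it was below, and changed side in 9 of 22. The median change of the 28 members was 0.31 *in vitro*, 0.54 at 1 day, 0.51 at 1 week and 0.72 at 3 weeks on the log2 scale, and the median of all genes was -0.11, -0.06, -0.08 and -0.03. The 4 comparisons use the same adult libraries. With scaling by library size alone the median of all genes was -0.42 *in vitro*, -0.19 at 1 day, -0.30 at 1 week and -0.24 at 3 weeks, and 7 members were called higher (16.6% of all genes) and 8 lower (38.8%) *in vitro*, 2 higher (12.5%) and 5 lower (20.6%) at 1 week, and 10 higher (14.0%) and 4 lower (25.2%) at 3 weeks, while RLE factors gave 4 and 1 at 1 week. Without the strictly marked cells, 11 members were higher (18.1% of all genes) and 2 lower (17.9%) at 3 weeks, 3 higher (13.6%) and 2 lower (13.7%) at 1 week, 6 higher (24.9%) and 4 lower (25.6%) at 1 day, and 10 higher (22.8%) and 4 lower (28.8%) *in vitro*, with Hmgcs1 (0.57), Idi1 (0.68) and Stard4 (1.38) no longer called at 1 day, Fads1 (-0.85) at 1 week and Idi1 (0.68) at 3 weeks. *In vitro* the limit marked 1 and 2 cells, so it could hardly change the counts there.

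**Figure D1:**
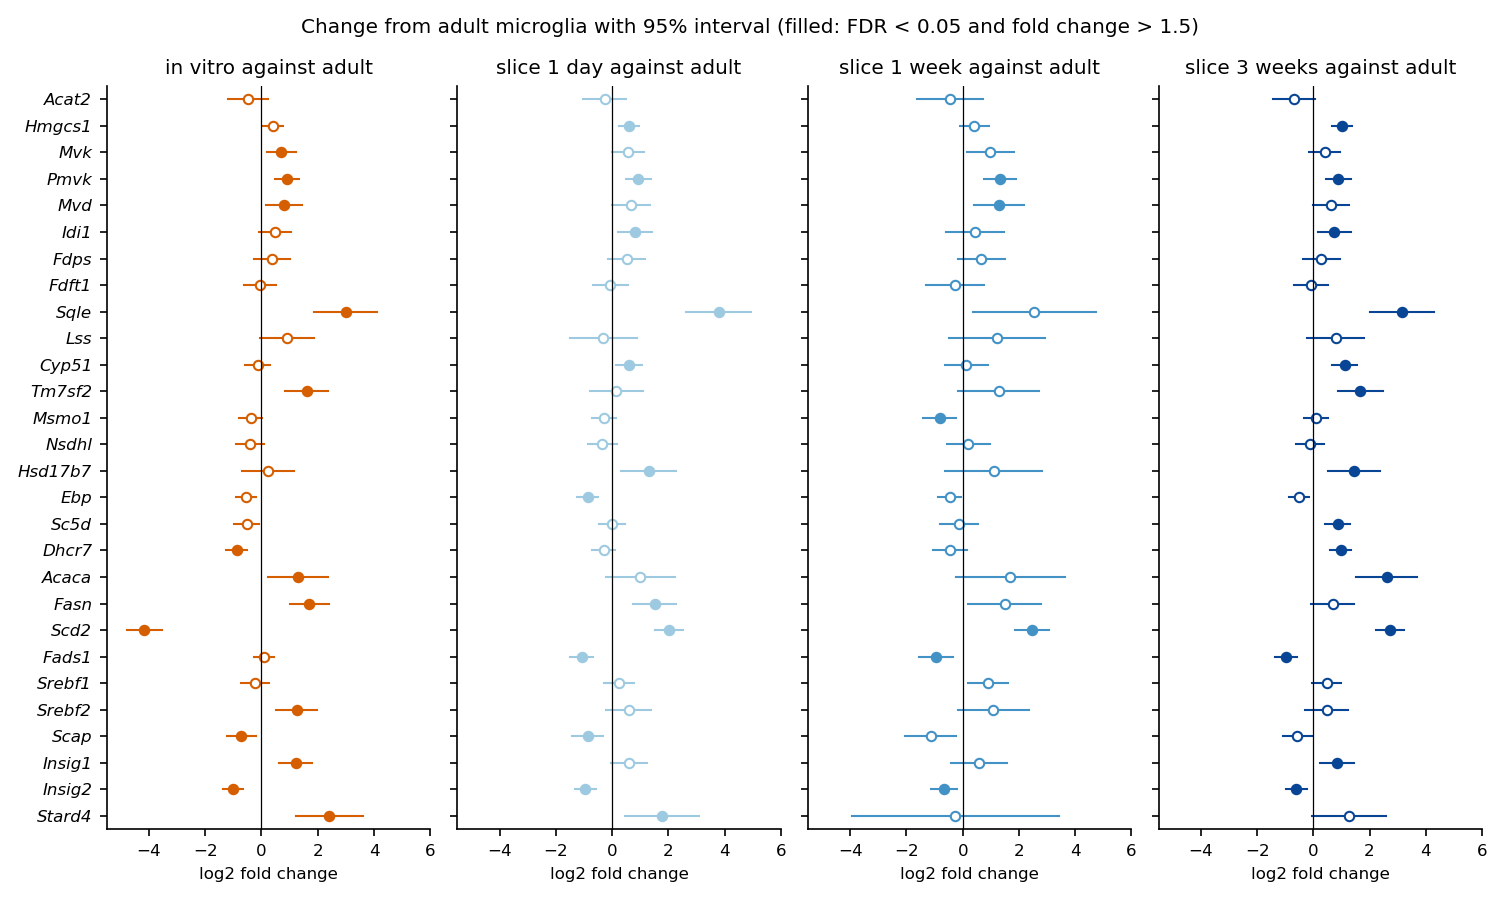
Change of each tested member from adult on the log2 scale (x axis) in *in vitro* microglia and in slices at 1 day, 1 week and 3 weeks, with its 95% interval and filled points for members called. Scd2 sits far below 0 *in vitro* and above 0 in every slice group, and intervals are widest at 1 week.

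Scd2, the stearoyl-CoA desaturase that makes monounsaturated fatty acids in brain, had the largest differences of all members between the 2 kinds of culture. Its level was 13.2 and 14.0 CPM in the adult libraries and 0.738 and 0.757 CPM *in vitro*. In slices it was 52.9 and 57.3 CPM at 1 day, 74.0 and 76.7 at 1 week, then 65.8 and 114 at 3 weeks. No library of any slice group overlapped with adult, and both *in vitro* libraries lay below every other library. Scd2 was 18.0-fold lower *in vitro* than in adult (log2 fold change -4.17, SE 0.28, adjusted p = 1.12e-06) and 6.64-fold higher in slices at 3 weeks (log2 fold change 2.73, SE 0.23, adjusted p = 1.69e-05). The rise was already present at 1 day (log2 fold change 2.02 ± 0.23, ± SE here and later, adjusted p = 5.29e-05) and was called at 1 week (log2 fold change 2.46 ± 0.27, adjusted p = 1.27e-04). With cells thinned to 1800 UMIs the change at 1 week was 1.38 and no longer called. Within the study label that holds adult replicate 1 and slice 3 weeks replicate 1 the difference was 2.23, and within the other label 2.94, on log2(CPM + 1). Without the strictly marked cells, the log2 fold change was 2.08 at 1 day and 2.73 at 3 weeks.

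The share of cells with an Scd2 UMI was lowest *in vitro* and highest in slices as well. At the measured depth it was 4.69% and 2.98% in adult, 0.910% and 0.895% *in vitro*, and in slices 26.1% and 36.7% at 1 day, 27.0% and 34.4% at 1 week, then 30.7% and 37.2% at 3 weeks. With cells thinned to 1800 UMIs, which left out the 413 and 1618 adult cells and the 9 to 51 cells of 5 slice libraries with fewer, it was 2.66% and 2.67% in adult, 0.0827% and 0.112% *in vitro*, and in slices 7.52% and 9.27% at 1 day, 5.76% and 7.69% at 1 week, then 10.3% and 15.8% at 3 weeks. At equal depth the 95% exact binomial intervals of the adult libraries (2.14 to 3.26% and 2.00 to 3.50%) lay above those *in vitro* and below those at 1 day and 3 weeks, but overlapped with those at 1 week. In the strictly neutrophil-marked cells of the slice 1 day libraries, the share was 2.94% of 68 cells (median 2224 UMIs) and 11.4% of 114 cells (median 4925 UMIs), against 29.7% and 39.8% of the other cells (median 6950 and 8906 UMIs).

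**Figure D2:**
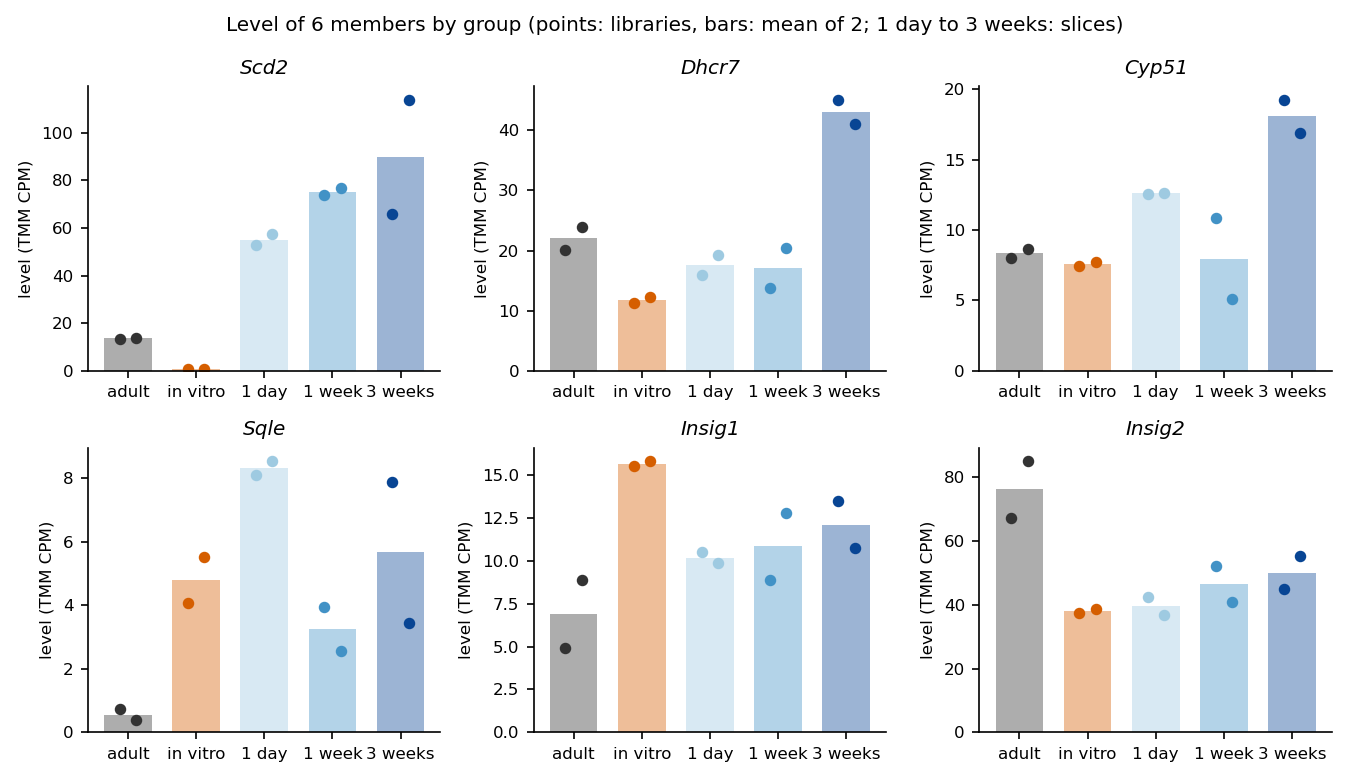
Level (TMM CPM, y axis) of 6 members in each library (points), with bars at the mean of the 2 libraries of a group and separate scales. The means of Scd2 and Dhcr7 were lowest *in vitro* and highest in slices at 3 weeks, and Insig2 was highest in adult.

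The other fatty acid genes divided. Acaca, acetyl-CoA carboxylase, which makes malonyl-CoA, was at 1.98 and 1.29 CPM in adult, 3.60 and 4.71 *in vitro*, and in slices 3.40 and 3.40 at 1 day, 7.89 and 0 at 1 week, then 6.33 and 13.7 at 3 weeks. Acaca was called higher *in vitro* (log2 fold change 1.30, SE 0.49, adjusted p = 0.042) and at 3 weeks (log2 fold change 2.61, SE 0.49, adjusted p = 0.00196). The call *in vitro* was lost without adult replicate 1 (1.78), *in vitro* replicate 2 (1.21), slice 1 day replicate 1 (1.30) or adult replicate 2 (1.07), and with the study label as covariate (0.95), and that at 3 weeks held without any 1 library, with 1.95 without slice 3 weeks replicate 2. Fasn, the fatty acid synthase, was at 2.12 and 1.29 CPM in adult, 5.33 and 6.23 *in vitro*, and in slices 4.19 and 5.66 at 1 day, 4.93 and 5.11 at 1 week, then 3.10 and 2.70 at 3 weeks. It was called higher *in vitro* (log2 fold change 1.71, SE 0.32, adjusted p = 0.00108) and at 1 day (log2 fold change 1.51 ± 0.35, adjusted p = 0.00399), the latter not without slice 1 day replicate 2 (1.31), while at 3 weeks its change was 0.70 (adjusted p = 0.133).

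Fads1, the delta-5 desaturase of long polyunsaturated fatty acids, went the other way from Scd2. It was at 21.5 and 22.1 CPM in adult and 23.6 and 22.7 *in vitro*, but at 8.90 and 11.2 at 1 day, 11.8 and 10.2 at 1 week, then 12.2 and 10.3 at 3 weeks. Every slice library lay below every adult and *in vitro* library. The fall was called at 1 day (log2 fold change -1.09, SE 0.18, adjusted p = 6.38e-04), at 1 week (log2 fold change -0.94 ± 0.28, adjusted p = 0.0267) and at 3 weeks (log2 fold change -0.97 ± 0.17, adjusted p = 0.00161), and *in vitro* the change was 0.08 with a 95% interval of -0.28 to 0.45. The call at 1 week was lost without any 1 of the adult or slice 1 week libraries (-1.06 to -0.92). Scd1 had no count in adult, *in vitro* or slice 1 week libraries, which allows up to 0.242 and 0.441 CPM before TMM scaling in the 2 adult libraries but 2.78 and 7.78 in the slice 1 week libraries, and it was at 0.21 and 0.05 CPM in slice 1 day replicate 2 and slice 3 weeks replicate 2. Fads2 was at no more than 0.26 CPM in the adult, *in vitro*, 1 day and 3 weeks libraries, and at 1.97 and 0 CPM at 1 week.

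**Figure D3:**
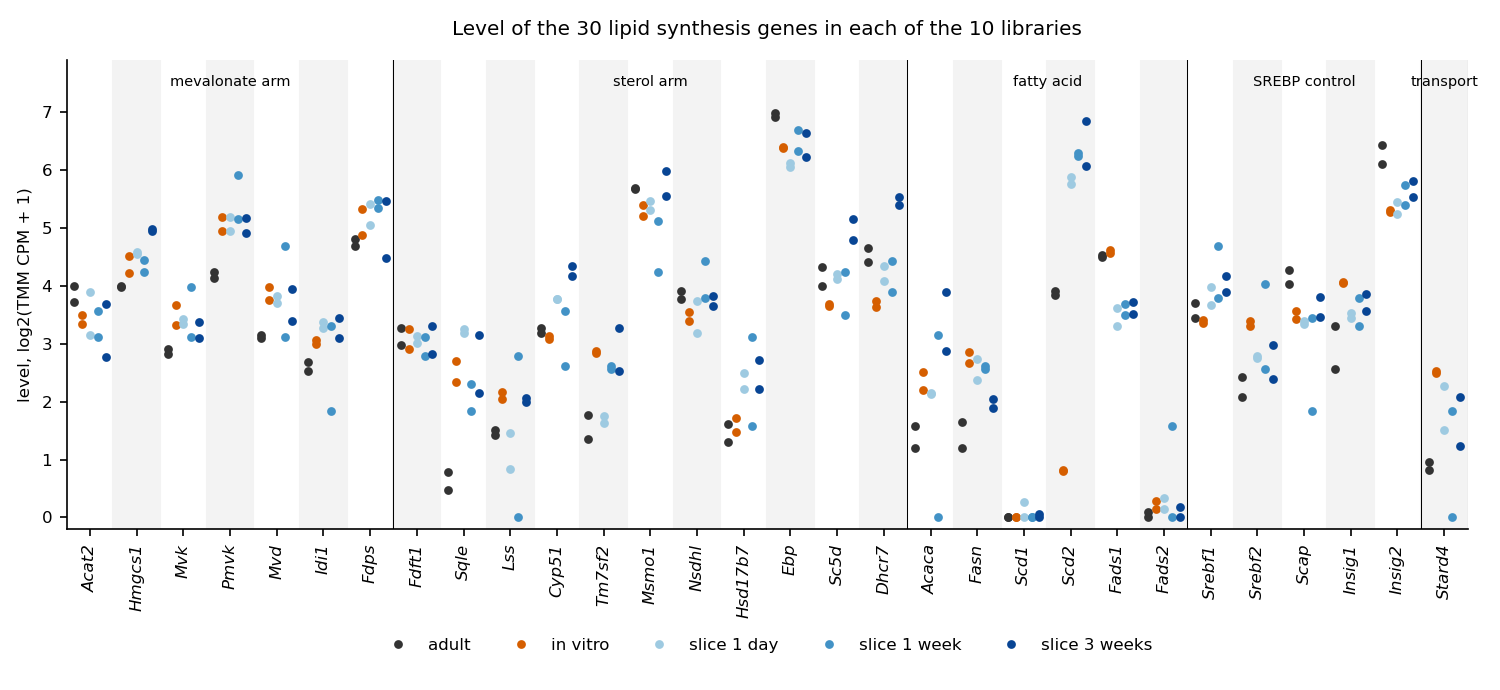
Level of each of the 30 members, as log2(TMM CPM + 1) on the y axis, in the 2 libraries of each of the 5 groups, ordered by role. Scd2 spans the widest range and Scd1 and Fads2 lie near 0.

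The sterol arm separated into enzymes that were higher at 3 weeks in slices and enzymes that were not. At 3 weeks 6 of its 11 members were called higher (17.9% of all genes were) and none lower (17.5%), with a median log2 change of 0.86. *In vitro* 2 were higher (22.4%) and 1 lower (28.5%), with a median of -0.14. At 1 day 3 were higher (24.9%) and 1 lower (25.3%), and at 1 week none was higher (15.0%) and 1 lower (13.6%).

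Dhcr7, the last reductase on the route to cholesterol, was at 20.1 and 23.9 CPM in adult and 11.4 and 12.4 *in vitro*. In slices it was at 16.0 and 19.2 at 1 day, 13.8 and 20.4 at 1 week, then 45.1 and 41.1 at 3 weeks. The 2 libraries at 3 weeks lay above all others and the *in vitro* libraries below all others. Dhcr7 fell 1.85-fold *in vitro* (log2 fold change -0.89, SE 0.17, adjusted p = 0.00125) and rose 1.96-fold at 3 weeks (log2 fold change 0.97, SE 0.17, adjusted p = 0.00133), and it was one of 2 members, with Scd2, called in opposite directions in different groups. Sc5d, the lathosterol desaturase that acts just before Dhcr7, was at 15.0 and 18.9 CPM in adult, 11.8 and 11.5 *in vitro*, and in slices 16.2 and 17.4 at 1 day, 17.8 and 10.2 at 1 week, then 26.5 and 34.4 at 3 weeks. It was called higher at 3 weeks (log2 fold change 0.86, SE 0.20, adjusted p = 0.00617), but not without adult replicate 1 (0.75), and *in vitro* its change of -0.53 (adjusted p = 0.0402) did not reach 1.5-fold.

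Cyp51, the lanosterol demethylase, was at 8.05 and 8.62 CPM in adult, 7.42 and 7.71 *in vitro*, and in slices 12.6 and 12.7 at 1 day, 10.8 and 5.11 at 1 week, then 19.3 and 16.9 at 3 weeks. Both libraries at 3 weeks lay above every other library. It was called higher at 3 weeks (log2 fold change 1.11, SE 0.20, adjusted p = 0.00166) and at 1 day (log2 fold change 0.60, SE 0.21, adjusted p = 0.0333), the latter at the margin, with values of 0.59 to 0.66 and no call when any 1 of the adult, *in vitro* or slice 1 day libraries was left out. Without the strictly marked cells the changes of Dhcr7, Sc5d and Cyp51 at 3 weeks were 0.97, 0.86 and 1.10. Within the 2 study labels the Cyp51 difference at 3 weeks was 1.16 and 0.90, and that of Dhcr7 1.13 and 0.75, on log2(CPM + 1).

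Sqle, squalene epoxidase, an early regulated step of the sterol arm, was near its detection floor in adult, with 10 and 3 UMIs (0.732 and 0.386 CPM). It was at 4.08 and 5.53 CPM *in vitro*, and in slices 8.12 and 8.54 at 1 day, 3.95 and 2.56 at 1 week, then 7.89 and 3.44 at 3 weeks. All cultured libraries were above both adult libraries. The rise was called *in vitro* (log2 fold change 2.99, SE 0.50, adjusted p = 5.30e-04), at 1 day (log2 fold change 3.79, SE 0.52, adjusted p = 1.63e-04) and at 3 weeks (log2 fold change 3.16, SE 0.52, adjusted p = 8.95e-04), and at 1 week, on 4 and 1 UMIs, the change was 2.55 (adjusted p = 0.0765). The 3 calls held without any 1 library, but without adult replicate 1 the changes were 3.70, 4.44 and 3.82, and at 3 weeks the change was 2.54 without slice 3 weeks replicate 1 and 3.75 without slice 3 weeks replicate 2.

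Tm7sf2, a sterol reductase, was at 2.42 and 1.54 CPM in adult, 6.29 and 6.14 *in vitro*, and in slices 2.10 and 2.37 at 1 day, 4.93 and 5.11 at 1 week, then 8.66 and 4.75 at 3 weeks. It was called higher *in vitro* (log2 fold change 1.60, SE 0.35, adjusted p = 0.00275) and at 3 weeks (log2 fold change 1.67, SE 0.36, adjusted p = 0.00456). Hsd17b7, a keto-reductase of the same arm, was at 1.46 and 2.06 CPM in adult, 1.77 and 2.30 *in vitro*, and in slices 3.67 and 4.63 at 1 day, 1.97 and 7.67 at 1 week, then 3.62 and 5.54 at 3 weeks, and was called higher at 1 day and 3 weeks (log2 fold change 1.30 ± 0.44 and 1.44 ± 0.42). These calls of Hsd17b7 were lost without adult replicate 1 (1.08 and 1.24), without slice 1 day replicate 2 (1.15) and without slice 3 weeks replicate 2 (1.13), and that at 1 day with the study label as covariate (1.00). Ebp, the sterol isomerase, took the largest part of the members' UMIs in adult (25.7% and 23.9% of their summed level). Its level was 125 and 119 CPM in adult, 82.1 and 83.4 *in vitro*, and in slices 64.7 and 68.2 at 1 day, 78.9 and 102 at 1 week, then 97.7 and 73.1 at 3 weeks, below both adult libraries in every cultured library. The fall was called at 1 day (log2 fold change -0.87, SE 0.17, adjusted p = 0.0014), and elsewhere it was smaller than 1.5-fold, with changes of -0.56 *in vitro*, -0.46 in the 1 week slices and -0.51 at 3 weeks. Msmo1, the sterol methyl oxidase, was called lower at 1 week alone (log2 fold change -0.82, SE 0.26, adjusted p = 0.0368), and the call was lost without adult replicate 1 (-0.78), slice 1 day replicate 2 (-0.77), slice 1 week replicate 1 (-1.46), slice 1 week replicate 2 (-0.61) or adult replicate 2 (-0.84). Fdft1 (squalene synthase), Lss (lanosterol synthase) and Nsdhl (a sterol dehydrogenase) were not called against adult, with changes of -0.27 to -0.06, -0.32 to 1.22 and -0.40 to 0.20.

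The mevalonate arm had members called higher in each cultured group. Of its 7 members, 3 were called higher *in vitro* (22.4% of all genes), 3 at 1 day (24.9%), 2 at 1 week (15.0%) and 3 at 3 weeks (17.9%), none was called lower, and the median log2 changes were 0.48, 0.61, 0.66 and 0.64. Pmvk, phosphomevalonate kinase, was the only member called higher in all 4 comparisons. Its level was 17.9 and 16.5 CPM in adult, 29.8 and 35.3 *in vitro*, and in slices 29.9 and 35.2 at 1 day, 34.5 and 58.8 at 1 week, then 35.0 and 29.0 at 3 weeks, with no overlap between adult and any culture. The log2 fold changes were 0.92 ± 0.20, 0.93 ± 0.20, 1.33 ± 0.26 and 0.89 ± 0.20 (SE), with adjusted p of 0.00238, 0.00305, 0.00369 and 0.00539. The call at 1 week was lost with cells thinned to 1800 UMIs (0.54).

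Hmgcs1, the cytosolic HMG-CoA synthase and an SREBP target, was at 15.0 and 14.7 CPM in adult, 17.6 and 21.7 *in vitro*, and in slices 23.0 and 22.2 at 1 day, 20.7 and 17.9 at 1 week, then 30.4 and 29.7 at 3 weeks. Its doubled level at 3 weeks was called (log2 fold change 1.02, SE 0.16, adjusted p = 6.78e-04), as was the smaller rise at 1 day (log2 fold change 0.61, SE 0.16, adjusted p = 0.00988), the latter not without slice 1 day replicate 1 (0.58) or adult replicate 2 (0.59). The change *in vitro* was 0.40 (adjusted p = 0.0468), under 1.5-fold. In slices at 3 weeks, the cell richest in member UMIs in each library held 9 and 24 Hmgcs1 UMIs and also carried oligodendrocyte genes, and without the strictly marked cells the change was 0.96.

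Idi1, the isopentenyl diphosphate isomerase, was at 5.42 and 4.76 CPM in adult, 7.32 and 6.93 *in vitro*, and in slices 8.64 and 9.37 at 1 day, 8.88 and 2.56 at 1 week, then 9.82 and 7.54 at 3 weeks. It was called higher at 1 day (log2 fold change 0.82, SE 0.28, adjusted p = 0.0271) and at 3 weeks (log2 fold change 0.74, SE 0.27, adjusted p = 0.0469). Both calls were lost without either adult library (0.97 and 0.74 at 1 day, 0.90 and 0.66 at 3 weeks), that at 1 day without slice 1 day replicate 1 (0.87) or 2 (0.82), and that at 3 weeks without slice 3 weeks replicate 1 (0.59), slice 1 day replicate 1 (0.74) or either *in vitro* library (0.79). Mvk and Mvd, the mevalonate kinase and the diphosphomevalonate decarboxylase, were called higher *in vitro* (log2 fold change 0.71 ± 0.24 and 0.80 ± 0.28), but not without adult replicate 1 (0.86 and 0.93), adult replicate 2 (0.66 and 0.77) or *in vitro* replicate 2 (0.63 and 0.80), and that of Mvd not with the study label as covariate (0.64). Mvd was also called at 1 week (1.29), where its libraries were at 24.7 and 7.67 CPM. That value came from slice 1 week replicate 1, without which it was 0.01, and the call was also lost without adult replicate 1 (1.36), adult replicate 2 (1.25) or slice 1 day replicate 1 (1.28). Fdps, the farnesyl diphosphate synthase, and Acat2, an acetyl-CoA acetyltransferase, were not called, with changes of 0.29 to 0.66 and -0.68 to -0.26.

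In the control of SREBP, the 2 INSIG genes went in opposite directions. Insig2 was at 67.3 and 85.1 CPM in adult, 37.4 and 38.6 *in vitro*, and in slices 42.4 and 36.7 at 1 day, 52.3 and 40.9 at 1 week, then 45.0 and 55.2 at 3 weeks, and every cultured library lay below both adult libraries. It was the only member called lower in all 4 comparisons, by 2.00-fold *in vitro* (log2 fold change -1.002, SE 0.16, adjusted p = 4.40e-04) and 1.93-fold at 1 day (log2 fold change -0.95, SE 0.17, adjusted p = 8.87e-04), and with log2 changes of -0.66 ± 0.21 at 1 week and -0.60 ± 0.16 at 3 weeks (adjusted p = 0.035 and 0.0148). The last lay just past 1.5-fold. It was not called when any 1 library other than slice 3 weeks replicate 2, adult replicate 1 and slice 1 day replicate 1 was left out (-0.55 to -0.42), and the call at 1 week was lost without adult replicate 2 (-0.49), slice 1 day replicate 2 (-0.61) or slice 1 week replicate 1 (-0.87) or 2 (-0.57). Both calls, at 1 week and at 3 weeks, were also lost with RLE factors and with DESeq2.

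Insig1, itself an SREBP target, was at 4.90 and 8.88 CPM in adult, 15.5 and 15.8 *in vitro*, and in slices 10.5 and 9.88 at 1 day, 8.88 and 12.8 at 1 week, then 13.4 and 10.8 at 3 weeks. Adult replicate 2 was at the level of slice 1 week replicate 1, and both *in vitro* libraries were above all others. The rise was called *in vitro* (log2 fold change 1.22, SE 0.26, adjusted p = 0.00264) and at 3 weeks (log2 fold change 0.83, SE 0.27, adjusted p = 0.0323), the latter not without adult replicate 1 (0.49), slice 3 weeks replicate 1 (0.74) or either *in vitro* library (0.87), and the differences within the 2 study labels were 1.29 and 0.25 on log2(CPM + 1).

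Srebf2, which codes for the SREBP of sterol genes, was at 4.39 and 3.22 CPM in adult and 8.86 and 9.54 *in vitro*, where both libraries lay above adult and it was called higher (log2 fold change 1.25, SE 0.33, adjusted p = 0.00791), though not without adult replicate 2 (1.06). In slices its change was 0.59 at 1 day, 1.08 at 1 week and 0.47 at 3 weeks, none of them called. Srebf1, which codes for the SREBP of fatty acid genes, was not called against adult, with changes of -0.23 *in vitro* to 0.91 at 1 week. Scap, the escort of SREBP, was at 18.3 and 15.3 CPM in adult, 10.8 and 9.71 *in vitro*, and in slices 9.43 and 9.06 at 1 day, 9.86 and 2.56 at 1 week, then 12.9 and 10.1 at 3 weeks. It was called lower *in vitro* and at 1 day (log2 fold change -0.72 ± 0.23 and -0.87 ± 0.25). These calls were lost without adult replicate 1 (-0.48 and -0.69), either *in vitro* library (-0.67 and -0.52 *in vitro*) or slice 1 day replicate 2 (-0.61 and -0.78), and that *in vitro* with the study label as covariate (-0.55).

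Stard4, a carrier that moves cholesterol between membranes, was at 0.951 and 0.772 CPM in adult, 4.62 and 4.80 *in vitro*, and in slices 1.83 and 3.81 at 1 day, 0 and 2.56 at 1 week, then 3.23 and 1.35 at 3 weeks. Calls of a higher level were made *in vitro* (log2 fold change 2.41, SE 0.54, adjusted p = 0.00325) and at 1 day (log2 fold change 1.78, SE 0.60, adjusted p = 0.0274). The call at 1 day was lost without slice 1 day replicate 2 (1.12) or either adult library (2.00 and 1.66).

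To compare the 2 cultures of the same length, *in vitro* microglia were set against slices at 3 weeks. Of the 28 members, 2 were higher *in vitro* (13.3% of all genes) and 8 lower (19.9%), and the median change was -0.11, against -0.10 over all genes. Scd2 had the largest difference (log2 fold change -6.90, SE 0.29, adjusted p = 2.34e-07), and Dhcr7 (log2 fold change -1.86, SE 0.17, adjusted p = 2.48e-05), Sc5d (log2 fold change -1.39, SE 0.19, adjusted p = 3.93e-04) and Cyp51 (log2 fold change -1.25, SE 0.19, adjusted p = 7.21e-04) were also lower *in vitro*. Fads1 was higher *in vitro* (log2 fold change 1.05, SE 0.17, adjusted p = 9.58e-04). The calls of these 5 held without any 1 library. Acaca (-1.31), Hsd17b7 (-1.20), Srebf1 (-0.69) and Hmgcs1 (-0.61) were also lower and Fasn (1.01) higher *in vitro*. The call of Acaca was lost without *in vitro* replicate 1 (-1.04), *in vitro* replicate 2 (-1.43) or slice 3 weeks replicate 2 (-0.54). That of Hsd17b7 was lost without *in vitro* replicate 1 (-0.94), *in vitro* replicate 2 (-1.32) or slice 3 weeks replicate 2 (-0.76). For Srebf1 this was so without slice 3 weeks replicate 1 (-0.46), adult replicate 1 (-0.65), *in vitro* replicate 1 (-0.65) or *in vitro* replicate 2 (-0.59), for Hmgcs1 without slice 3 weeks replicate 1 (-0.51), adult replicate 1 (-0.57), *in vitro* replicate 1 (-0.39), slice 1 day replicate 2 (-0.57), slice 1 week replicate 1 (-0.54), slice 1 week replicate 2 (-0.54) or slice 3 weeks replicate 2 (-0.56), and for Fasn without *in vitro* replicate 1 (1.19), *in vitro* replicate 2 (0.96) or slice 3 weeks replicate 2 (0.96). The call of Srebf1 was also lost with the study label as covariate.

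Along the slice culture, no member was called between 1 day and 1 week (4.91% of all genes were higher and 5.25% lower). At an unadjusted p under 0.05 there were 0 members higher and 0 lower, and DESeq2 called 0. From 1 day to 3 weeks 5 members rose (13.9%) and none fell (12.8%). They were Acaca (1.60), Tm7sf2 (1.51), Dhcr7 (log2 fold change 1.27, SE 0.18, adjusted p = 7.85e-04), Sc5d (0.86) and Scd2 (0.71). Only Dhcr7 held without any 1 library. Without slice 1 day replicate 1 or 2 the others were at 1.59 and 1.60, 1.45 and 1.63, 0.81 and 0.92, and 0.65 and 0.78, with no call, and Scd2 was at 0.26 and Acaca at 0.91 without slice 3 weeks replicate 2. Dhcr7 was also the one member higher at 3 weeks than at 1 week (log2 fold change 1.43, SE 0.26, adjusted p = 0.0121; 2.23% of all genes were higher and 3.49% lower), a call that was lost without slice 1 week replicate 1 (1.09).

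Summed over the 30 members, the level was 485 and 496 CPM in adult, 414 and 454 *in vitro*, and in slices 456 and 496 at 1 day, 545 and 524 at 1 week, then 631 and 597 at 3 weeks. The libraries at 3 weeks were the highest and those *in vitro* the lowest, with 1 day overlapping with adult. By library size alone, adult (535 and 567 CPM) lay above 1 day (476 and 505) and 1 week (512 and 532). It was then closer to 3 weeks (624 and 574). The order also rests on the sum, which Ebp, Insig2 and Msmo1 lead in adult (49.8% and 51.1%). By the median over members in its place, adult was lowest (-0.36 on the log2 scale against the mean of libraries) and *in vitro* (-0.0616) was above it. The sums are a description, with no test. By role, the mevalonate arm was at 90.5 ± 1.87 CPM in adult (SD, n = 2) and at 126 ± 18.2, 134 ± 13.1, 149.8 ± 5.81 and 132 ± 23.8 *in vitro*, at 1 day, 1 week and 3 weeks. The sterol arm was lower *in vitro* (186 ± 9.15) and at 1 day (188 ± 14.2) and 1 week (195 ± 6.33) than in adult (246 ± 1.23), and at 3 weeks (271 ± 35.4) it overlapped with adult. Ebp and Msmo1 together were at 172 ± 4.30 CPM in adult, 121 ± 4.67 *in vitro*, 107 ± 5.79 at 1 day and 116 ± 5.41 at 1 week. The other 9 sterol enzymes summed to 74.4 ± 3.07 in adult, 65.0 ± 4.48 *in vitro*, 80.6 ± 8.43 at 1 day, 78.6 ± 0.915 at 1 week and 131 ± 6.47 at 3 weeks, so the lower sums at 1 day and 1 week were those of Ebp and Msmo1. The fatty acid genes were at 38.8 ± 0.136 in adult, 34.0 ± 0.679 *in vitro* and 114 ± 37.7 at 3 weeks, where Scd2 alone made up 10.4% and 19.1% of the sum over all members.

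**Figure D4:**
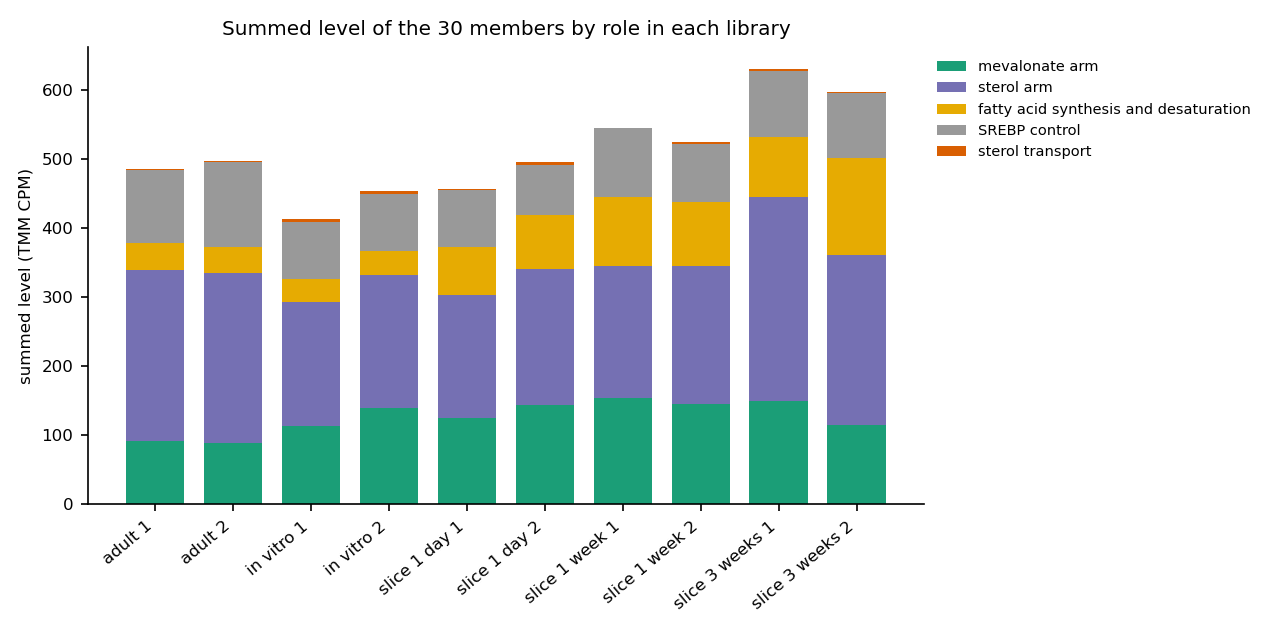
Summed level of the 30 members (TMM CPM, y axis) in each library, divided by role. The fatty acid part is widest in the slices, and the sterol part is narrower *in vitro* and in slices at 1 day and 1 week than in adult, at the last 2 through Ebp and Msmo1 and not the other 9 sterol enzymes.

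Within each library, cells with UMIs of at least 2 proliferation genes were set against the other cells. The share of members' UMIs was higher in these cycling cells in 10 of 10 libraries, by 1.04 to 1.42 times. The exact 95% Poisson intervals, which cover counting error only, lay apart in both *in vitro* libraries (409 against 367 and 455 against 378 CPM, without TMM factors) and both libraries at 3 weeks (675 against 608 and 674 against 562), and overlapped in the other 6. Idi1 was higher in cycling cells in 10 libraries and Hmgcs1 in 3. Sqle was higher in 8, with 5.80 against 2.90 and 8.21 against 2.92 CPM in the *in vitro* libraries. Cycling cells were 0.395% and 0.312% of adult cells, 23.7% and 32.3% *in vitro* and 8.80% to 33.7% in slices. No called member changed direction when they were left out, but some calls were lost. Against adult these were Mvk and Scap *in vitro*, Hsd17b7 and Idi1 at 1 day, and Fads1 and Msmo1 at 1 week. Also lost were Idi1 and Insig2 at 3 weeks, and Scd2 at 3 weeks against 1 day. Without cycling cells the *in vitro* sum was 411 CPM and that at 3 weeks 599 CPM.

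**Figure D5:**
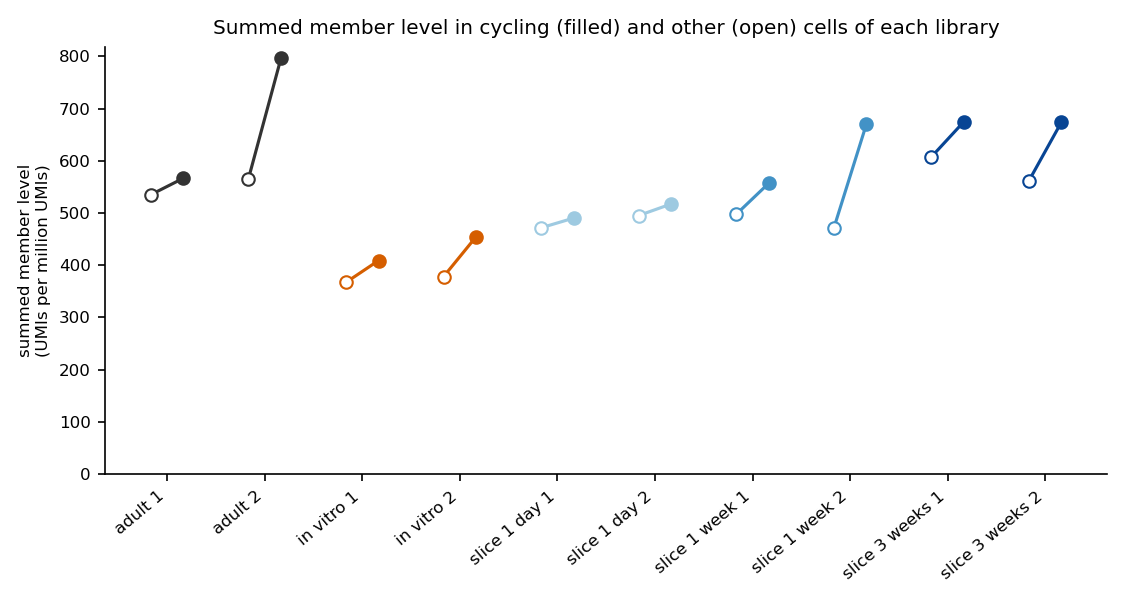
Summed member level (CPM without TMM factors, y axis) in cycling cells (filled) and other cells (open) of each library. The filled point is above the open one in all 10 libraries, and the steepest lines, in adult replicate 2 and slice 1 week replicate 2, rest on 11 and 13 cycling cells.

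With cells thinned to 1800 UMIs (3386 of 3799 and 1909 of 3527 adult cells, and all *in vitro* cells, had as many), a cell held on average 0.963 and 1.00 member UMIs in adult, 0.655 and 0.710 *in vitro*, and in slices 0.776 and 0.911 at 1 day, 0.734 and 0.769 at 1 week, then 1.13 and 1.06 at 3 weeks. No member UMI was found in 36.4% to 38.2% of adult cells, 50.4% to 53.0% *in vitro*, 42.8% to 47.8% in slices at 1 day, 46.2% to 51.1% at 1 week and 35.6% to 36.8% at 3 weeks. Ebp was seen in 21.9% and 22.5% of adult cells and 9.35% to 16.5% of cells in the cultured libraries at this depth, and Insig2 in 12.3% and 15.3% against 5.41% to 9.35%.

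Beyond the members, 28 other genes of lipid synthesis and SREBP function were tested, of a list of 32. *In vitro* 9 were called higher (22.4% of all genes were) and 10 lower (28.5%). In slices 9 were higher (24.9%) and 6 lower (25.3%) at 1 day, 6 higher (15.0%) and 3 lower (13.6%) at 1 week, and 8 higher (17.9%) and 3 lower (17.5%) at 3 weeks. Among the largest called changes *in vitro* were Me1 (3.26) and Elovl6 (2.58), which supply NADPH and lengthen fatty acids, Cyb5r3 (1.99), Gpam (-1.92) and Slc25a1 (1.82). Me1 and Elovl6 were at the detection floor in adult, with 2 and 0 UMIs and 4 and 0 UMIs, so the size of their changes is uncertain. At 3 weeks Cyb5r3 (1.33), Acss2 (1.33), Slc25a1 (1.21) and Lpin1 (-1.13) were among them. The median over this list was -0.00295 *in vitro* and -0.04 at 3 weeks, against -0.11 and -0.03 over all genes.

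Genes of sterol export, storage and the liver X receptor moved in both directions as well, with 7 of 13 higher (22.4% of all genes) and 3 lower (28.5%) *in vitro*. In slices 6 were higher at each time (24.9%, 15.0% and 17.9%), while 4 were lower at 1 day (25.3%), 3 at 1 week (13.6%) and 2 at 3 weeks (17.5%). Apoe, the lipid carrier, was at 1026 and 669 CPM in adult, 73949 and 65364 *in vitro* and 27018 and 20504 at 3 weeks (log2 fold change 6.36 ± 0.27 and 4.81 ± 0.25). Ch25h, the cholesterol 25-hydroxylase, was at 0.439 and 0.515 CPM in adult, 3.66 and 4.32 *in vitro* and, far apart, 30.1 and 7.54 at 3 weeks, and was higher *in vitro* (3.07) and at 3 weeks (5.24). Lipa, the lysosomal acid lipase, was also higher in both (2.34 and 1.64). *In vitro* Nr1h3 rose (2.70) and Lpcat3 (-2.51) and Mylip (-1.96) fell. At 3 weeks Cyp27a1 fell (-2.17), and Npc2 (1.49) and Soat1 (0.95) rose. The median over this list was 0.79 *in vitro* and 0.35 at 3 weeks, against the same medians of all genes.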

How the data were processed

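Microglia of 5 groups, with 2 libraries each, were sequenced as 10x Genomics 3′ single cell libraries. The authors used Cell Ranger to obtain UMI counts of genes in each barcode, and the submitters' processing notes name Cell Ranger 1.3.0 and mm10. The deposited tables hold raw counts, and a gene missing from a table was taken as 0. The 19637 barcodes were filtered to at most 5% mitochondrial UMIs, at least 400 genes and at most 30000 UMIs, which left 19059 cells. Doublets were not called. A share of cells has an exact 95% binomial interval, which covers counting error only, and a count of 0 allows up to 3 counts.

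Per library, the counts of all kept cells were added up, and the 12157 genes that passed filterByExpr (minimum count 10) were fitted with edgeR 4.0.16 in R 4.3.3 (TMM, glmQLFit, glmQLFTest) in 1 model of the 5 groups, with Benjamini-Hochberg adjustment over all genes. Members were called at an adjusted p under 0.05 and a fold change over 1.5. DESeq2 1.42.0 was an alternative. All adjusted p in the text are from edgeR. Libraries are biological replicates per the labels. The 30 members are all named. Of 2 further lists up to 6 called genes each are named by size for *in vitro* and slice 3 weeks against adult, and some of these are not reported here. The members and lists were chosen with earlier results of these data known. Alternatives to scaling, filters, tools, libraries and cells were run.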

Additional observations from a re-analysis of the deposited data

Results flagged for a closer look

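The change from adult differed between *in vitro* microglia and slice microglia at 3 weeks for 10 of the 28 members, tested as the contrast of the 2 cultures in edgeR, since both changes are taken from the same adult libraries. The differences of log2 change (*in vitro* minus slice 3 weeks) were Hmgcs1 (-0.61), Cyp51 (-1.25), Hsd17b7 (-1.20), Sc5d (-1.39), Dhcr7 (-1.86), Acaca (-1.31), Fasn (1.01), Scd2 (-6.90), Fads1 (1.05) and Srebf1 (-0.69), with adjusted p from 2.34e-07 to 0.0303. In this contrast 2 of the 28 members were higher and 8 lower, while 13.3% of all genes were higher and 19.9% lower. Only with both directions pooled was the share of members near that of all genes. The calls of Hmgcs1, Hsd17b7, Acaca, Fasn and Srebf1 were each lost without at least 1 library, as given in the report. The change also differed between slices at 3 weeks and at 1 day for Tm7sf2 (1.51), Sc5d (0.86), Dhcr7 (1.27), Acaca (1.60) and Scd2 (0.71), where 13.9% of all genes were higher and 12.8% lower, and between 3 weeks and 1 week for Dhcr7 (1.43). Leaving out 1 library ended these calls too, except that of Dhcr7 against 1 day, with 1.09 for Dhcr7 without slice 1 week replicate 1.

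The barcodes left out by the limits on cells also held member UMIs. Their level was above that of the kept cells, beyond the exact 95% Poisson interval, in adult replicate 2 (906 CPM in 58 barcodes, interval 627 to 1266, against 567), *in vitro* replicate 1 (455 against 379), *in vitro* replicate 2 (469 against 408) and slice 3 weeks replicate 1 (762 against 624). The other 6 libraries did not show this.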

How the results depend on the processing

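No call of a member reversed except in slices at 1 day without the cells that carried at least 2 markers of 1 other cell type, a setting that kept no cell of slice 1 day replicate 2 or slice 1 week replicate 1, where Cyp51 was at -1.17, Fasn at -6.58 and Idi1 at -1.46 with no call. Scd2, Sqle, Tm7sf2, Pmvk, Insig1, Insig2, Dhcr7 and Stard4 *in vitro*, and Scd2, Sqle, Tm7sf2, Pmvk, Acaca, Hmgcs1, Cyp51, Dhcr7 and Fads1 at 3 weeks, were called against adult in all 23 alternatives. Over all called members and alternatives, the call was kept in 1225 values, lost with the same direction in 214 and lost with a reversed direction in those 3.

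Set against the counts of called members in the report, library size alone gave 8 lower *in vitro*, 5 lower at 1 week and 4 lower at 3 weeks. RLE factors gave 1 lower at 1 week and at 3 weeks. DESeq2 gave 5 higher (17.9% of members, 17.5% of all genes) and 0 lower (10.7% of all genes) at 1 week and 1 lower at 3 weeks. With no filter on low counts, 1 was lower at 3 weeks, 4 were higher *in vitro* than at 3 weeks (2 in the report) and 3 higher at 3 weeks than at 1 week (1 in the report). With the study label as covariate, 5 were higher and 1 lower at 1 week, 4 higher *in vitro* than at 3 weeks, 2 lower at 3 weeks than at 1 day (0 in the report) and 2 higher at 3 weeks than at 1 week. It also ended the calls at 1 week of Fads1 (-0.90), Msmo1 (-0.70) and Mvd (1.14). Fitting only the 2 groups compared gave 5 higher and 1 lower at 1 week, 1 lower at 3 weeks, 3 higher at 3 weeks than at 1 day (5 in the report) and 0 higher at 3 weeks than at 1 week. Without the slice 1 week libraries, with all barcodes and without cycling cells, 1 was lower at 3 weeks. Cells thinned to 1800 UMIs gave 0 and 0 at 1 week, 1 lower at 3 weeks, 1 higher and 5 lower *in vitro* than at 3 weeks (2 and 8 in the report), and 2 and 0 higher at 3 weeks than at 1 day and 1 week. Without cells with markers of other types, 2 were higher at 1 day, 1 lower at 1 week and 3 weeks, 1 higher and 5 lower *in vitro* than at 3 weeks, and 0 higher at 3 weeks than at 1 day or 1 week. The stricter marker limits, chosen after seeing the data, gave 2 higher at 3 weeks than at 1 week. Without 1 library in turn, the ranges were 6 to 12 higher *in vitro*, 4 to 11 higher at 1 day, 2 to 5 higher and 0 to 4 lower at 1 week, 8 to 13 higher and 1 to 4 lower at 3 weeks, 1 to 6 higher and 4 to 8 lower *in vitro* than at 3 weeks, 1 to 5 higher and 0 to 3 lower at 3 weeks than at 1 day, and 0 to 3 higher at 3 weeks than at 1 week. Over the alternatives, 16.6 to 27.7% of all genes were higher *in vitro*, 10.7 to 26.6% at 1 day, 5.26 to 17.5% at 1 week and 13.0 to 20.2% at 3 weeks, and 17.5 to 38.8%, 8.31 to 29.5%, 2.82 to 20.6% and 10.9 to 25.2% lower. Between cultures they were 9.74 to 17.2% higher and 9.68 to 23.5% lower *in vitro* than at 3 weeks, 0.624 to 17.7% and 0.752 to 15.7% at 3 weeks against 1 day, and 0.0684 to 5.40% higher at 3 weeks than at 1 week. The causes were not tested. With the replicate block, 9 were higher and 4 lower both *in vitro* and at 1 day, 4 higher and 4 lower at 1 week, and 11 higher and 2 lower at 3 weeks, while 2 were higher and 8 lower *in vitro* than at 3 weeks, and 5 and 1 higher at 3 weeks than at 1 day and 1 week. The block ended the calls of Acaca *in vitro* (1.26) and Idi1 at 3 weeks (0.76). The correlations of deviations between same-numbered libraries were -0.112 to 0.0941, so the numbers were not taken as pairs.

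The summed level was 551 CPM in adult and 394 *in vitro* by library size alone, 386 at 1 day without cells with markers of other types, and at 1 week 428 with thinned cells, 497 without cycling cells, 552 without cells with markers of other types and 554 under the stricter limits. The median over members in place of the sum gave -0.36 in adult, -0.0616 *in vitro*, -0.0801 at 1 week and 0.12 at 3 weeks, on log2 against the mean of libraries, so that adult was then lowest, where *in vitro* was lowest by the sum. Thinned to 1800 UMIs, the mean shares of cells were, for Scd2, 0.0973% *in vitro*, 8.40% at 1 day, 6.72% at 1 week and 13.0% at 3 weeks, for Ebp 12.7%, 11.7%, 12.4% and 14.0%, and for Insig2 13.8% in adult and 5.79%, 7.16%, 7.56% and 8.73% in the cultures.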
